A study of Saccharomyces cerevisiae with 8 samples.

Results

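The mitochondrial chromosome of the budding yeast *Saccharomyces cerevisiae* carries 8 genes for proteins, and these were followed through a series on the dose of the silencing protein Sir3. The genes are COX1, COX2, COX3, COB, ATP6, ATP8, OLI1 and VAR1. They were taken by name from the rows of type gene on that chromosome, and are 8 of the 5798 genes of the table and 8 of 19 such rows. All 8 passed the filter on low values and were tested among 5473 genes.

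Yeast mitochondria keep a small, AT-rich genome with its own phage-type RNA polymerase, Rpo41, which starts at a short promoter motif and makes long transcripts that are then cut, often at tRNAs. The protein genes encode core subunits of the respiratory chain (COX1, COX2 and COX3 of cytochrome c oxidase, or complex IV, and COB, cytochrome b, of complex III), membrane subunits of the ATP synthase (ATP6, ATP8 and OLI1) and 1 protein of the mitochondrial ribosome (VAR1). All other subunits of these complexes come from nuclear genes and are imported, so the complexes draw on 2 genomes. Sir3 binds nucleosomes in the nucleus and silences genes near telomeres and at the mating-type loci. These messages lack the poly(A) tails of nuclear messages, so their levels can be read in libraries made from total RNA.

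All strains were in the W303 background and were harvested while growing exponentially. WT is the wild type. GPD-SIR3 expresses SIR3 from the strong GPD promoter, GPD-SIR3-A2Q expresses from the same promoter a mutant form known to be impaired in silencing, in which alanine at the second position is replaced by glutamine, and SIR3Δ lacks the gene. Each strain had 2 libraries of paired-end SOLiD total RNA sequencing, numbered in the labels, which do not say whether the libraries came from separate cultures or clones. The p-values therefore measure only the spread between these libraries, and in RNA from whole cultures fewer cells with a transcript and less transcript per cell cannot be told apart. The unit of level is the scaled read count, that is, a library's reads multiplied by a factor that brings all its gene reads to the same sum. For SIR3 itself, WT had 466 ± 25.5 scaled reads (SD, n = 2), GPD-SIR3 12298 ± 2217, GPD-SIR3-A2Q 13174 ± 60.2 and SIR3Δ 38.0 ± 1.65, as labelled. Depth was 7006670 to 18077542 reads on genes, of which 158926 to 358355 fell in the 8 genes. Libraries of the same strain were farther apart than counting noise allows (chi-square over degrees of freedom of 16.2 to 43.0).

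The 8 genes all lie on the plus strand of the 85779-base chromosome, in build R64, and the table's coordinates equal those of the reference annotation. The reference is strain S288C, and differences between its mitochondrial chromosome and that of W303 were not tested. COX1 (chrmt:13818-26701) has 8 exons and 7 introns, and only 12.5% of its row is coding. COB (chrmt:36540-43647) has 6 exons and 5 introns, with 16.3% coding. The other genes have no intron. These are ATP8 (chrmt:27666-27812), ATP6 (chrmt:28487-29266), OLI1 (chrmt:46723-46953), VAR1 (chrmt:48901-50097), COX2 (chrmt:73758-74513) and COX3 (chrmt:79213-80022). COX1, ATP8 and ATP6 follow each other and are known to be transcribed together. OLI1 and VAR1 likewise share a primary transcript with a serine tRNA between them, and COB follows a glutamate tRNA.

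The promoter motif of the mitochondrial polymerase is ATATAAGTA. It occurs 14 times on the chromosome, 11 times on the plus strand and 3 times on the minus strand. On the plus strand, 2 of the 8 genes, COX1 and OLI1, have it within 1500 bases before their start codon. The same letters are in the matching window of 1.90% of 6002 nuclear protein-coding genes, and in 17.5% of 57 windows of that length laid end to end along the mitochondrial chromosome. The nearest copy before COB lies 1653 bases upstream, ahead of the glutamate tRNA. Before COX2 and COX3 the nearest plus-strand copies lie 8365 and 13820 bases upstream and are not printed. The matches before COX1, COB and OLI1 are given with 30 bases of the plus strand of the R64 reference each, the motif in capitals.
COX1, chrmt:13339-13368, motif ending 460 bases before the start codon: ataagtattgATATAAGTAatagatataat
COB, chrmt:34868-34897, ending 1653 bases before: aagaaatattATATAAGTAatatataaaaa
OLI1, chrmt:46061-46090, ending 643 bases before: attaatattaATATAAGTAatatatatagt
OLI1, chrmt:46139-46168, ending 565 bases before: atacacatttATATAAGTAtatatatatat
A match here is a run of letters and not a measured start site.

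The genes differ widely in base composition. G and C make up 17.1% of the mitochondrial chromosome, against 38.3% of the nuclear genome, and within the 8 gene spans they range from 10.4% in VAR1 to 33.3% in OLI1. The start of OLI1, the start of VAR1 and the whole of ATP8 are printed from the same reference with G and C in capitals, since these 3 genes stand at the ends of the range of levels described next. G and C make up 35.0% of the first 100 bases of OLI1, 6.0% of those of VAR1, and 19.0% of the 147 bases of ATP8.
OLI1, chrmt:46723-46822: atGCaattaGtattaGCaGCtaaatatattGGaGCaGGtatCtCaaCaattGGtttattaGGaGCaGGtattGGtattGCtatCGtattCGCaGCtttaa
VAR1, chrmt:48901-49000: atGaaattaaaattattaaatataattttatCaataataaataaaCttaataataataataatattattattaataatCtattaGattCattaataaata
ATP8, chrmt:27666-27812: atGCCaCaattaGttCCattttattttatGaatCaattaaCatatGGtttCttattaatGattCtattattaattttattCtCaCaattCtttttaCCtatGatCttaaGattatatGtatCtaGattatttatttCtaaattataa

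Per length, the 8 genes spanned a 46.0-fold range of levels and kept nearly the same order in all 8 libraries. OLI1, the ring-forming subunit 9 of the ATP synthase, stood highest at a mean of 21859 scaled reads per kb. COX2 followed at 14624, COX3 at 11149 and COX1 at 6733 scaled reads per kb. ATP6, at 3363, and COB, at 3155, exchanged places between libraries, the only neighbours that did. ATP8 stood at 813 and VAR1 at 475 scaled reads per kb, the lowest in each library. The values for COX1 and COB are means over rows that are mostly intron.

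Levels per length went with base composition. Across the 8 genes, Spearman's rho between the share of G and C in the gene span and scaled reads per kb was 0.93, and it ran from 0.857 to 0.929 over the single libraries. With the coding sequence alone, rho was 0.81. OLI1 (33.3% G and C), COX3 (30.0%) and COX2 (26.7%) had the highest levels per kb, and VAR1 (10.4%) the lowest. COB and ATP8 have nearly the same composition, 18.9% and 19.0%, but COB stood at 3155 scaled reads per kb and ATP8 at 813. This is a description over 8 genes that share the same libraries, and the part of reads lost from AT-rich sequence was not tested. Of 50-base stretches, only COB had some that occur elsewhere in the genome, 2.86% of them.

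**Figure D1:**
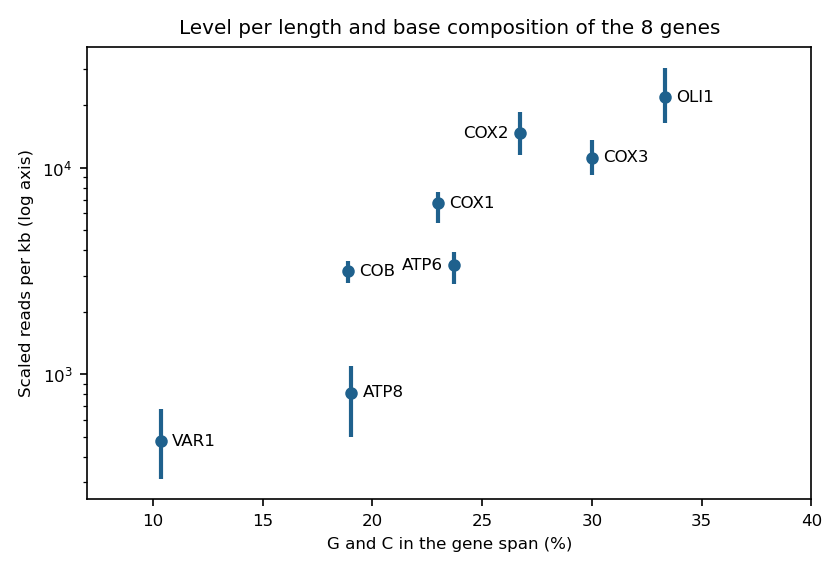
Mean level of each gene in scaled reads per kb (log axis) against the percentage of G and C in its span, with a vertical line from the lowest to the highest of the 8 libraries. OLI1, at 33.3% G and C, has the highest level and VAR1, at 10.4%, the lowest, while COB and ATP8 differ in level at nearly the same composition.

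Genes of 1 transcription unit did not have the same level. The level per kb of OLI1 was 37.7 to 65.4 times that of VAR1, which lies downstream of it by 1947 bases. COX1 stood at 1.70 to 2.29 times ATP6, and ATP6 at 3.04 to 6.94 times the ATP8 that precedes it. The COX1 row is only 12.5% coding, so its ratio compares rows and not messages. How reads were counted over a row as short as ATP8, of 147 bases, is not given. For the ratio of OLI1 to VAR1, WT had 39.5 ± 2.07, GPD-SIR3 59.9 ± 7.81, GPD-SIR3-A2Q 41.5 ± 5.36 and SIR3Δ 47.1 ± 7.46 (SD, n = 2 each). XUT1590 (chrmt:35756-36353), a non-coding row between the glutamate tRNA and COB, stood at 817 scaled reads per kb, below the 4446 of the first stretch of COB.

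No gene of the 8 passed the test in any comparison between strains. The test was limma on log2(value + 1) with Benjamini-Hochberg adjustment over all 5473 genes and a threshold of 0.05. In GPD-SIR3 against WT, 0 of 8 were called where 1.32% of all genes were. In GPD-SIR3-A2Q against WT it was 0 of 8 beside 0.749%, in SIR3Δ against WT 0 of 8 beside 0.968%, and in GPD-SIR3 against GPD-SIR3-A2Q 0 of 8 beside 1.46%. With background shares this small, 0 of 8 is not a result about these genes. The F test over all strains also called 0 of 8, beside 3.0% of all genes. edgeR, DESeq2 and limma-voom on the recovered reads called 0 of 8 in each comparison as well.

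At an unadjusted p below 0.05 in limma, COX3 passed in GPD-SIR3 against WT (1 of 8, background 8.68%), none in GPD-SIR3-A2Q against WT (background 6.85%), OLI1 and VAR1 in SIR3Δ against WT (2 of 8, background 8.44%) and OLI1 in GPD-SIR3 against GPD-SIR3-A2Q (1 of 8, background 10.2%). In the F test, OLI1 alone had an unadjusted p below 0.05 (1 of 8, background 12.5%). The median log2 difference of the 8 genes was 0.13, 0.01, -0.09 and 0.07 in the same order of comparisons, and that of all genes tested 0.04, -0.03, -0.07 and 0.07. The standard errors of the single genes ran from 0.12 for COX1 to 0.27 for ATP8 on the log2 scale. The 95% intervals of the differences from WT all lay between a 0.456-fold and a 1.69-fold level. These outer bounds belong to VAR1 and ATP8, and the intervals of the genes with more reads were narrower.

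**Figure D2:**
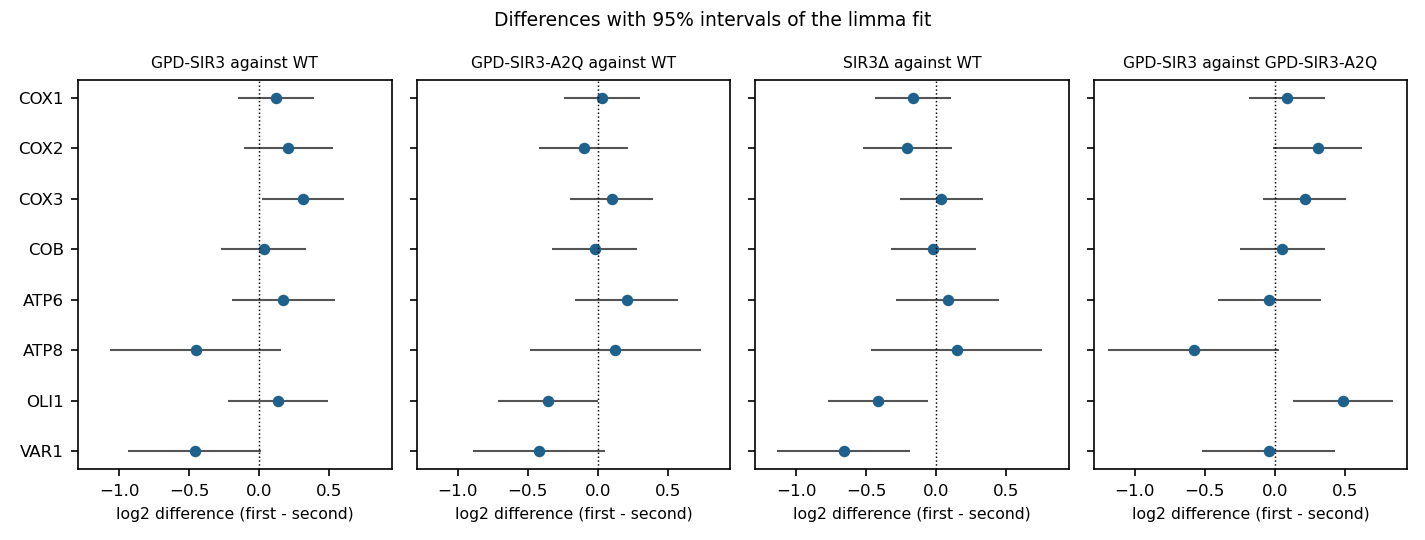
Log2 difference of each gene (point) with its 95% interval (line) in the limma fit, for the 4 comparisons, the first strain minus the second. No point passed the adjusted threshold, and the intervals are widest for ATP8, the gene with the fewest reads.

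Cytochrome c oxidase is represented by its 3 catalytic-core subunits. COX1, which holds the heme and copper centre where oxygen is reduced, had the most reads. Its row stood at 87502 and 85763 scaled reads in WT, 89680 and 98599 in GPD-SIR3, 93443 and 84021 in GPD-SIR3-A2Q, and 85283 and 69693 in SIR3Δ. Both GPD-SIR3 libraries lay above WT and both SIR3Δ libraries below it, though SIR3Δ 1 missed the lower WT library by little. The log2 differences from WT were 0.12 ± 0.12 (SE) for GPD-SIR3, 0.03 for GPD-SIR3-A2Q and -0.17 for SIR3Δ, with limma adjusted p of 0.836, 0.970 and 0.784. Without GPD-SIR3 2 the first was 0.05, and without SIR3Δ 2 the last was -0.02.

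COX2 encodes the subunit that takes electrons from cytochrome c. It stood at 10707 and 11613 scaled reads in WT, 11845 and 13979 in GPD-SIR3, 11377 and 9505 in GPD-SIR3-A2Q, and 10699 and 8723 in SIR3Δ. GPD-SIR3 lay above both WT and GPD-SIR3-A2Q without overlap. The difference from GPD-SIR3-A2Q was 0.31 ± 0.14 (SE) on the log2 scale, with a 95% interval of -0.01 to 0.63 (limma adjusted p = 0.50). Leaving out GPD-SIR3-A2Q 2 gave 0.18, and leaving out GPD-SIR3 2 gave 0.19.

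COX3 completes the core. Its values were 8249 and 8356 scaled reads in WT, 9712 and 10957 in GPD-SIR3, 9063 and 8727 in GPD-SIR3-A2Q, and 9696 and 7487 in SIR3Δ. The WT libraries were nearly equal and were the lowest except for SIR3Δ 2. GPD-SIR3 was 1.24-fold above WT (95% interval 1.01 to 1.52), and in limma its p of 0.0395 became an adjusted p of 0.540. SIR3Δ had 1 library above and 1 below WT.

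COB, cytochrome b, carries the hemes of complex III. It stood at 22390 and 22413 scaled reads in WT, 20951 and 25038 in GPD-SIR3, 21489 and 22633 in GPD-SIR3-A2Q, and 24898 and 19576 in SIR3Δ. Every strain overlapped WT. The log2 differences from WT were 0.03, -0.02 and -0.02, each with an SE of 0.13, and the F test gave an adjusted p of 0.987 in limma, the highest of the 8. Their signs turned under other scalings.

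ATP6 encodes the subunit through which protons pass to the ring of the ATP synthase. It stood at 2317 and 2500 scaled reads in WT, 2729 and 2688 in GPD-SIR3, 2584 and 2991 in GPD-SIR3-A2Q, and 3043 and 2132 in SIR3Δ. Both overexpression strains lay above WT, and SIR3Δ held both the highest and the lowest value. The log2 differences from WT were 0.17, 0.21 and 0.08, each with an SE of 0.16 (limma adjusted p of 0.833, 0.829 and 0.943).

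ATP8, a small membrane subunit needed to assemble the same proton channel, had 73 to 418 reads per library. Its scaled values were 144 and 101 in WT, 104.8 and 73.0 in GPD-SIR3, 136 and 126 in GPD-SIR3-A2Q, and 162 and 109 in SIR3Δ. GPD-SIR3 lay below GPD-SIR3-A2Q, by 0.58 ± 0.27 (SE) on the log2 scale, with a limma adjusted p of 0.505. The log2 difference was -0.32 without GPD-SIR3 2 and -0.84 without GPD-SIR3 1. ATP8 was the only gene of the 8 whose lowest library was GPD-SIR3 2, the library in which 5 of the others were highest.

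OLI1 stood at 6000 and 5113 scaled reads in WT, 5243 and 7035 in GPD-SIR3, 4369 and 4299 in GPD-SIR3-A2Q, and 4549 and 3788 in SIR3Δ. All 4 libraries of GPD-SIR3-A2Q and SIR3Δ lay below all 4 of WT and GPD-SIR3. SIR3Δ was at 0.750 times WT (95% interval 0.586 to 0.959, limma adjusted p = 0.497), and GPD-SIR3-A2Q at 0.783 times WT (adjusted p = 0.734 in limma). GPD-SIR3 lay above GPD-SIR3-A2Q by 0.49 ± 0.16 (SE) on the log2 scale (95% interval 0.13 to 0.84), with a limma p of 0.0128 and an adjusted p of 0.309. That difference was 0.27 without GPD-SIR3 2 and 0.70 without GPD-SIR3 1. In the F test over strains the limma p was 0.0175 and the adjusted p 0.259.

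VAR1 encodes a protein of the small subunit of the mitochondrial ribosome, and is the only member that serves translation. It stood at 817 and 646 scaled reads in WT, 499 and 557 in GPD-SIR3, 600 and 492 in GPD-SIR3-A2Q, and 564 and 375 in SIR3Δ. Both WT libraries lay above all 6 others. The log2 differences from WT were -0.46 ± 0.21 for GPD-SIR3, -0.42 ± 0.21 for GPD-SIR3-A2Q and -0.66 ± 0.21 for SIR3Δ (SE), with limma adjusted p of 0.586, 0.760 and 0.381. The 3 comparisons share the same WT libraries, so they are not separate evidence, and GPD-SIR3 and GPD-SIR3-A2Q differed by -0.04 between themselves. Without WT 1 the differences were -0.29, -0.25 and -0.49, and without SIR3Δ 2 that of SIR3Δ was -0.36.

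**Figure D3:**
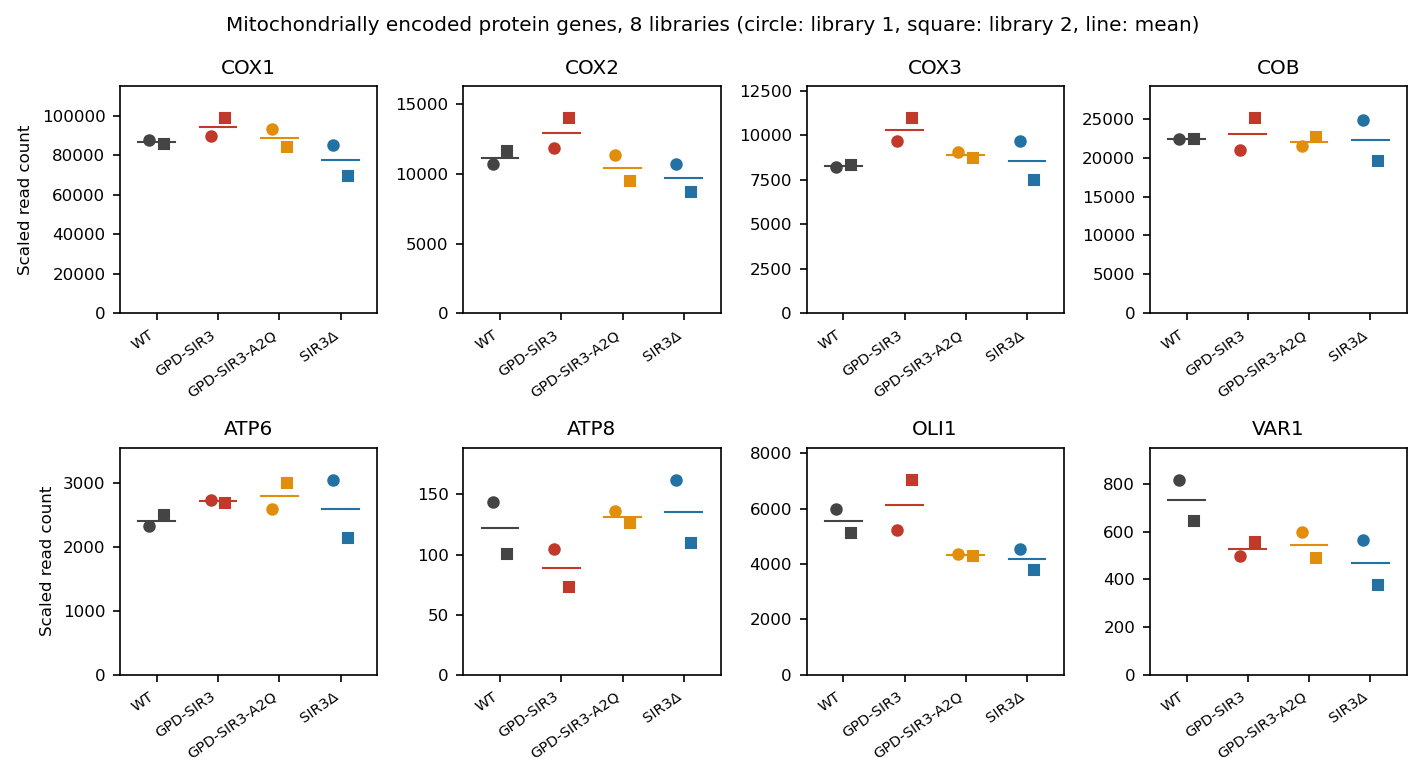
Scaled read count of each gene in the 8 libraries (vertical axes from 0), by strain, with library 1 as a circle, library 2 as a square and the strain mean as a line. VAR1 lies highest in both WT libraries, OLI1 is lower in GPD-SIR3-A2Q and SIR3Δ, and SIR3Δ 2 is the lowest library for 7 of the 8 genes.

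Counted by libraries that do not overlap, 5 of 8 genes were apart in GPD-SIR3 against WT (4 higher and 1 lower), where 33.8% of all genes were. The counts were 4 of 8 in GPD-SIR3-A2Q against WT (2 higher, 2 lower, background 39.8%), 4 of 8 in SIR3Δ against WT (all 4 lower, background 39.5%) and 4 of 8 in GPD-SIR3 against GPD-SIR3-A2Q (3 higher, 1 lower, background 41.0%). With 8 genes that share their libraries, nothing is read from these counts. The 4 genes lower in SIR3Δ were COX1, COX2, OLI1 and VAR1.

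Single libraries weighed as much as strains. SIR3Δ 2 was lowest of the 8 libraries for 7 genes and lay below SIR3Δ 1 for 8 of 8, at 0.665 to 0.833 of its level. GPD-SIR3 2 was highest for 5 genes. Summed over the 8 genes, WT had 137315 ± 1146 scaled reads, GPD-SIR3 149845 ± 12842, GPD-SIR3-A2Q 137927 ± 7261 and SIR3Δ 125389 ± 19100 (SD, n = 2 each). GPD-SIR3 lay 1.09-fold above WT without overlap, with an exact permutation p of 0.333, the smallest that 2 against 2 libraries allow. This log2 difference of 0.12 was 0.036 without GPD-SIR3 2 and 0.21 without GPD-SIR3 1. SIR3Δ 1, at 138895, was above both WT libraries and SIR3Δ 2, at 111883, below them, so the log2 difference of -0.14 became 0.02 without SIR3Δ 2. The 8 genes held 1.60% of gene reads in SIR3Δ 2 and 1.90% to 2.27% in the other libraries, and COX1, introns included, held 61.4% to 65.3% of their sum.

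Over the 8 libraries, 23 of the 28 pairs of genes correlated positively, and the 5 negative pairs all held ATP8. The highest coefficient was 0.89, between COX1 and COX2, and the lowest -0.54, between COX2 and ATP8. All pairs share the libraries' scaling, and the coefficients are a description. The nuclear genes whose log2 level was most like the mean log2 level of the 8 genes were MFM1 (Pearson's r = 0.986), a magnesium transporter of the mitochondrial inner membrane, SCY1 (0.976), POM33 (0.962), TRK1 (0.959), a potassium transporter of the plasma membrane, and GGA2 (0.944). They were picked as the top 5 of 5454 genes over 8 libraries, of which 80 had r above 0.8.

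COX1 and COB are mosaic genes, several of whose introns hold reading frames for maturases and endonucleases that are translated together with the exons before them. The table lists these frames as rows of their own: AI1, AI2, AI3, AI4 and AI5_ALPHA start where COX1 starts, and BI2, BI3 and BI4 where COB starts, so the same reads enter several rows. Subtracting each row from the next gave reads for 6 consecutive segments of COX1 and 4 of COB. In COX1 the mean was 12314 scaled reads per kb in the first segment, exon 1 with most of intron aI1, and 9867 in the second, which holds most of intron aI2. It was 2128 in the third, 5548 in the fourth, 3686 in the fifth and 3785 in the last. The first was the highest and the third the lowest segment in all 8 libraries.

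The first segment is only 6.75% exon and the second 1.44%, and both introns are of the group II type, which splice as lariats. They took means of 35.5% and 28.5% of the reads of the COX1 row, but how reads split between exon and intron within a segment cannot be read from the table. The first segment had 2.93 to 3.64 times the level of the last. In the last segment, the frame AI5_BETA (chrmt:24156-25255) stood at 1142 to 1559 scaled reads per kb while the remainder of the segment, which has the last exons, stood at 3961 to 5266. In COB the profile was different. Its mean was 4446 scaled reads per kb in the first segment, 1281 in the second, which is 4.57% exon, 2475 in the third and 4498 in the last. First and last were thus alike, at a ratio of 0.852 to 1.15. The segments also differ in base composition. G and C make up 25.0% and 26.8% of the first and second COX1 segments, 21.7% of the third and 18.1% to 24.5% of the later ones. In COB they make up 15.3% of the second segment and 19.4% to 20.5% of the others. The part of base composition in these profiles was not tested.

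**Figure D4:**
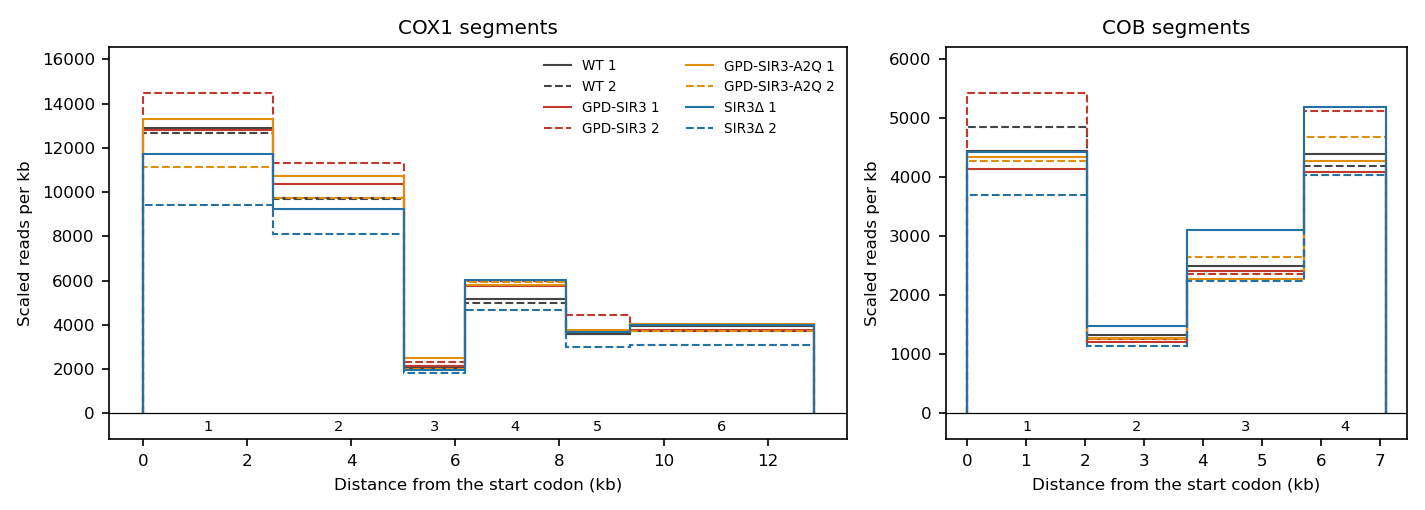
Scaled reads per kb along COX1 and COB, by distance from the start codon in kb, for consecutive segments numbered under each profile, with 1 line per library (solid for library 1, dashed for library 2). The first 2 segments of COX1 are highest in each library, and COB is high at both ends.

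The profile within a gene does not depend on the library's scaling, so strains were also compared by the share of the row's reads that each segment held. For the first segment of COX1, WT had 37.0 ± 0.13% of the row, GPD-SIR3 36.3 ± 0.70%, GPD-SIR3-A2Q 34.5 ± 1.74% and SIR3Δ 34.1 ± 0.46% (SD, n = 2 each). The single shares were 36.9% and 37.1% in WT, 35.8% and 36.8% in GPD-SIR3, 35.7% and 33.2% in GPD-SIR3-A2Q, and 34.5% and 33.8% in SIR3Δ. WT was the highest, with no overlap with any other strain, and SIR3Δ lay 2.85 percentage points below it.

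The fourth segment, which holds most of intron aI4, had the opposite order. Here WT had 11.4 ± 0.11% of the row, GPD-SIR3 12.1 ± 0.50%, GPD-SIR3-A2Q 12.9 ± 1.17% and SIR3Δ 13.3 ± 0.49%. In COB the first segment held 40.5% and 44.1% in WT and 36.2% and 38.6% in SIR3Δ, a mean difference of -4.88 percentage points. Its last segment held 26.8 ± 0.92% in WT and 28.9 ± 0.19% in SIR3Δ. Of the 10 segments, 4 had shares without overlap in GPD-SIR3 against WT, 4 in GPD-SIR3-A2Q against WT, 6 in SIR3Δ against WT and 2 in GPD-SIR3 against GPD-SIR3-A2Q. By level, 33.8%, 39.8%, 39.5% and 41.0% of all genes were without overlap in the same comparisons. Nothing is read from the counts of segments, and those described were chosen after their values were seen. Shares of 1 row must sum to the whole, the strain comparisons share the WT libraries, and with 2 libraries a strain an exact permutation test cannot go below 0.333, so these are differences between these libraries only.

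The other rows of the chromosome give the setting. None of the 11 other rows of type gene was called in any comparison (limma, lowest adjusted p = 0.552), beside 0.749% to 1.46% of all genes. 10 of them are frames in introns or the intron endonuclease SCEI, which lies in the 21S rRNA gene, and the last is Q0255, whose row overlaps the end of COX2. Library 2 differed from library 1 in the same direction in all strains for several other RNA classes. XUT1807-A, which overlaps the 15S rRNA of the small mitochondrial ribosomal subunit, was 1.65 to 3.55 times higher in library 2 than in library 1 in each of the 4 strains. The 24 tRNA rows together were 1.20 to 2.03 times higher. RPM1, the RNA of mitochondrial RNase P, stood at 0.626 to 0.776, and SCEI at 0.741 to 0.860. The sum of the 8 protein genes stood at 0.806 to 1.13, above 1 only in GPD-SIR3. Single protein genes spread more widely than their sum, which COX1 dominates, from 0.665 for VAR1 in SIR3Δ to 1.34 for OLI1 in GPD-SIR3. The share of snoRNA in all reads was 15.4% to 22.8%, and its part in these ratios was not tested.

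**Figure D5:**
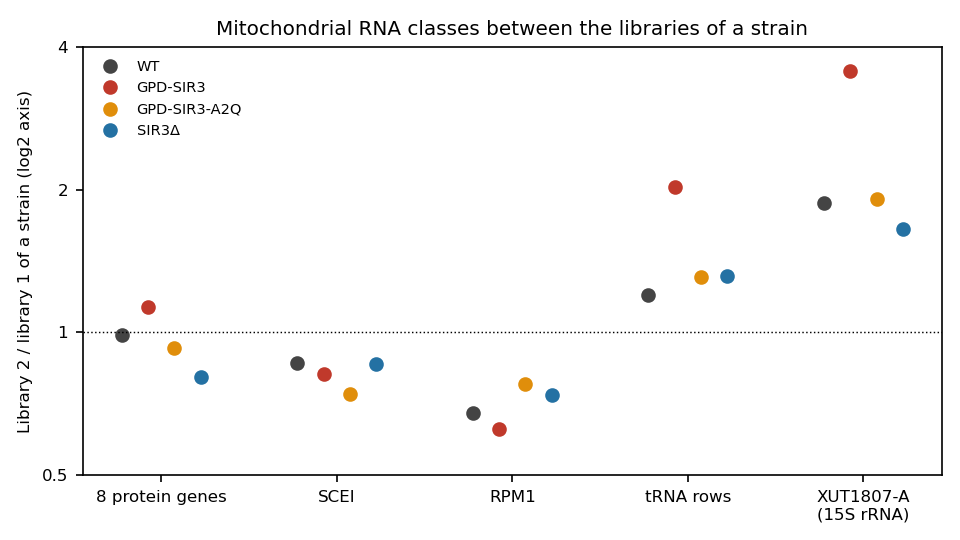
Ratio of library 2 to library 1 within each strain (log2 axis) for the summed 8 protein genes, SCEI, RPM1, the summed tRNA rows and XUT1807-A. The ribosomal and tRNA rows lie above 1 and SCEI and RPM1 below 1 in all 4 strains, while the protein genes lie at 0.806 to 1.13.

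Nuclear genes for the same complexes and for mitochondrial expression were taken as 10 lists with 179 entries, all matched to the table and tested. Per length, the median nuclear gene of each complex stood below each of its mitochondrial partners except ATP8. The 9 nuclear subunits of complex IV had a median of 1994 scaled reads per kb and a highest value of 3365, for COX9, where COX1, COX2 and COX3 stood at 6733 to 14624. The 14 of the ATP synthase had a median of 1803, with ATP2, the catalytic beta subunit, at 7256. OLI1, at 21859, was above all of these and ATP8, at 813, below their median. The 9 of complex III had a median of 1295 and the 73 mitochondrial ribosomal proteins of 314, beside 3155 for COB and 475 for VAR1. The values of COX1 and COB are means over rows that are mostly intron. Along COX1, segment means ran from 2128 to 12314 scaled reads per kb, so its place beside the nuclear genes depends on the segment.

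In GPD-SIR3 against WT, limma called 1.32% of all genes. Of the nuclear lists there, 0 of 9 complex IV, 0 of 9 complex III, 0 of 14 ATP synthase and 0 of 73 mitochondrial ribosomal genes were called. This held in limma, edgeR, DESeq2 and limma-voom. The medians of the log2 differences were 0.24, 0.23, 0.25 and 0.32, beside 0.04 for all genes tested. Of the ribosomal proteins, 71 of 73 had a positive difference and 22 (30.1%) an unadjusted limma p below 0.05, where 8.68% of all genes did. MNP1, a protein of the large subunit, stood at 788 ± 9.69 scaled reads in WT and 1087 ± 98.2 in GPD-SIR3 (SD, n = 2), a log2 difference of 0.46 with an adjusted p of 0.169 in limma. MRP1, of the small subunit, stood at 798 ± 39.9 and 830 ± 43.2. Without GPD-SIR3 2, the medians of the 4 lists were 0.17, 0.10, 0.11 and 0.26, beside 0.02 for all genes, and without GPD-SIR3 1 they were 0.18, 0.37, 0.32 and 0.39, beside 0.07.

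Against GPD-SIR3-A2Q the medians of the same lists in GPD-SIR3 were 0.40, 0.21, 0.29 and 0.33, beside 0.07 for all genes. Again 0 were called in limma, where 1.46% of all genes were, and 0 in edgeR and limma-voom. DESeq2 called 1 ribosomal protein. Positive differences were found in 72 of 73 ribosomal proteins, 28 of them (38.4%) with an unadjusted limma p below 0.05, where 10.2% of all genes had one. Without GPD-SIR3 2 the 4 medians were 0.35, 0.087, 0.23 and 0.30, and without GPD-SIR3 1 they were 0.48, 0.23, 0.46 and 0.43. Without GPD-SIR3-A2Q 1 the complex III median was 0.10. Both comparisons share the GPD-SIR3 libraries. VAR1, the mitochondrially encoded ribosomal protein, had differences of -0.46 and -0.04 in these comparisons, and COX1, COX2 and COX3 of 0.12, 0.21 and 0.31 against WT and 0.09, 0.31 and 0.21 against GPD-SIR3-A2Q. In GPD-SIR3-A2Q and SIR3Δ against WT the ribosomal medians were -0.06 and -0.11, beside -0.03 and -0.07 for all genes. No gene of these 4 lists was called there by any of the 4 tools, while limma called 0.749% and 0.968% of all genes.

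COX4 and COX5A, the complex IV subunits with the highest mean value of the list, stood at 1611 ± 292 and 1222 ± 184 scaled reads in WT and at 1905 ± 276 and 1575 ± 167 in GPD-SIR3 (SD, n = 2 each). COR1 and RIP1, the core protein and the iron-sulfur protein of complex III, stood at 2088 ± 49.0 and 1406 ± 219 in WT and at 2262 ± 43.3 and 1759 ± 168 in GPD-SIR3. ATP2 and ATP1, the beta and alpha subunits of the ATP synthase, stood at 10311 ± 1113 and 5201 ± 1130 in WT and at 12095 ± 215 and 6220 ± 1138 in GPD-SIR3. Each mean was higher in GPD-SIR3, and none of these genes passed the test. Over the whole lists, the difference from WT was positive in 8 of 9 complex IV, 8 of 9 complex III and 11 of 14 ATP synthase genes.

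The machinery that makes and translates the mitochondrial messages had no call in limma in any comparison. This holds for 17 genes of transcription and RNA processing, 21 message-specific activators of translation, 13 genes of DNA maintenance, 8 of membrane insertion and the 4 of the HAP complex, the activator of respiratory genes. Of all genes, 0.749% to 1.46% were called per comparison, so the absence of calls is not a result about these lists. In GPD-SIR3 against WT their medians were 0.21, 0.16, 0.11, 0.11 and 0.17. RPO41, the mitochondrial RNA polymerase, had 984 ± 94.0 scaled reads in WT, and GPD-SIR3 had 1146 ± 58.4, GPD-SIR3-A2Q 1036 ± 23.0 and SIR3Δ 953 ± 23.3. MSS116, an RNA helicase that aids splicing of the COX1 and COB introns, stood in the same order at 1160 ± 26.9, 1251 ± 63.9, 1097 ± 7.71 and 981 ± 67.3. MSS51, which activates translation of COX1, stood at 841 ± 78.8, 921 ± 69.5, 874 ± 48.8 and 874 ± 33.0, and ATP22, which does so for ATP6, at 568 ± 12.3, 487 ± 52.7, 402 ± 17.6 and 428 ± 65.9 (SD, n = 2 each).

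ACO1 and ILV5, enzymes that also help to keep mitochondrial DNA, had the highest means of the maintenance list, 10662 ± 2329 and 6370 ± 1527 scaled reads in WT and 14837 ± 2360 and 6279 ± 1140 in GPD-SIR3. OXA1, the insertase of the inner membrane, stood at 405 ± 0.98 in WT and 426 ± 46.9 in GPD-SIR3, and MBA1, which binds the ribosome to that membrane, at 192 ± 2.54 and 230.0 ± 26.9. HAP4, the regulated subunit of the HAP complex, stood at 638 ± 193 and 663 ± 44.4, and HAP2 at 118 ± 10.8 and 137 ± 22.3.

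Of 11 genes of the retrograde response, the nuclear program that answers to the state of mitochondria, 1 was called in limma. The call came in GPD-SIR3 against WT, where 1.32% of all genes were called, and against GPD-SIR3-A2Q, where 1.46% were. DLD3, a cytosolic enzyme that uses D-lactate and 2-hydroxyglutarate, had 2960 ± 373 scaled reads in WT, and GPD-SIR3 had 733 ± 150, GPD-SIR3-A2Q 3480 ± 398 and SIR3Δ 3948 ± 828. It fell by 2.02 on the log2 scale in GPD-SIR3 against WT (limma adjusted p = 4.98e-04). In GPD-SIR3 against GPD-SIR3-A2Q the log2 difference was -2.26 (limma adjusted p = 2.51e-04). Whether this change in DLD3 has to do with mitochondria was not tested. The median of the list was 0.42 for GPD-SIR3, 0.37 for GPD-SIR3-A2Q and 0.24 for SIR3Δ, each against the same WT libraries, opposite in sign to DLD3 in GPD-SIR3. Differences were positive in 8, 10 and 9 of the 11 genes. An unadjusted limma p below 0.05 was found in 7 of 11 for GPD-SIR3 (6 higher and DLD3 lower, 63.6%, background 8.68%). It was found in 2 of 11 for GPD-SIR3-A2Q (2 higher, 18.2%, background 6.85%) and 1 of 11 for SIR3Δ (1 higher, 9.09%, background 8.44%). The list was chosen with earlier results of these data known, so these shares are a description. In GPD-SIR3 against GPD-SIR3-A2Q the median of the list was 0.01, beside 0.07 for all genes. There DLD3 alone had such a p (1 of 11, 9.09%, background 10.2%). CIT2, the citrate synthase by which the response is usually followed, stood at 822 ± 145 in WT and 1635 ± 756 in GPD-SIR3, a log2 difference of 0.92 with an adjusted p of 0.334 in limma.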

How the data were processed

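Total RNA of 4 *Saccharomyces cerevisiae* strains was sequenced in 2 libraries each. TopHat 1.4.1 and genome R64 are named per the submitters' processing notes. Which counter was used, whether it read strand and what it did with multiply matching reads is not given in the sources used here. The values the authors deposited are a signal: each library's counts were multiplied by a constant that brings gene reads to the same sum. In GPD-SIR3 2 they are whole and were taken as the authors' counts. In the other libraries, 100% of values came out whole, within 0.01 of a read, after division by that constant. Another 16 columns of per-sample values were not used.

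Because the values are scaled, limma 3.58.1 in R 4.3.3 (trend) was run on log2(value + 1) of the deposited signal. It took the 5473 genes that reached 10 in 2 or more libraries, all strains in 1 model with 4 residual degrees of freedom, two-sided. Fold changes are on that scale. The procedure was tested on simulated data. Genes were drawn there independently with a common dispersion, so shifts that genes share within a library are not covered. The changes simulated there left out the genes with the highest levels, such as COX1 and COB, so that test does not cover them. Alternatives were edgeR 4.0.16 and DESeq2 1.42.0 on the recovered reads, limma-voom, other pseudocounts (0.5 and 10), filters and scalings, pairwise fits, a replicate block and leaving out each library.

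Segments of COX1 and COB are differences between nested rows. A read across the end of a nested row may fall on either side. Sequences are from RefSeq's R64 genome. The 8 genes and the nuclear lists were chosen with earlier results of these data known. Named are all 8 genes, up to 3 called genes or otherwise the 2 with the highest mean of each list, the 5 nuclear genes most alike, and SIR3. XUT1590, XUT1807-A, RPM1, SCEI, Q0255 and CIT2 were named after their values were seen.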

Additional observations from a re-analysis of the deposited data

How the results depend on the processing

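None of the 8 genes was called under any of 20 alternatives per comparison. The lowest adjusted p was 0.0723, for OLI1 in GPD-SIR3 against GPD-SIR3-A2Q with 1 library left out, where that difference ran from 0.27 to 0.70. Of 32 differences, 19 kept their sign throughout and 13 turned in 33 of 640 alternatives, and none of those 13 differences was larger than 0.15 in size. The cause of the turns was not tested. The 640 include settings that cannot move a gene's difference. These are other filters, pairwise fits, the replicate block and leaving out a library of a strain not compared. The share of 33 in 640 is therefore no measure of how stable the signs are. Scaling to all features moved the median of all genes to -0.10 in GPD-SIR3-A2Q and -0.15 in SIR3Δ against WT.

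With the replicate number as a block, 0 of 8 genes were called in each comparison and 1 mitochondrial ribosomal protein in each of GPD-SIR3 against WT and against GPD-SIR3-A2Q. Same-numbered deviations correlated at 0.55 between WT and SIR3Δ and at 0.30 between GPD-SIR3 and GPD-SIR3-A2Q. In the other pairs of strains they correlated at -0.03 to 0.08. The numbers are thus not shown to pair the libraries throughout, though some RNA classes moved the same way with the number in all strains.

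Some list counts moved. The retrograde count in GPD-SIR3 against WT, 1, was 3 in DESeq2 and 2 without GPD-SIR3 1, SIR3Δ 1 or SIR3Δ 2 in turn, and in SIR3Δ against WT it was 1 in DESeq2 and 0 in limma. In GPD-SIR3 against GPD-SIR3-A2Q, 1 ribosomal protein was called with no filter, with scaling to nuclear genes and in DESeq2, and 1 complex IV subunit without GPD-SIR3 1.

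The summed level of the 8 genes in GPD-SIR3-A2Q against WT, 0.0054 on the log2 scale, was -0.070 when scaled to all features, -0.054 as a mean of log2 values and -0.043 without COX1, and ran from -0.048 to 0.059 with libraries left out in turn. In SIR3Δ against WT, -0.14 ran from -0.30 to 0.017. In GPD-SIR3 it ran from 0.036 to 0.21 against WT and from 0.030 to 0.21 against GPD-SIR3-A2Q.

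Single genes turned as follows. COB in GPD-SIR3 against WT was -0.0032 under TMM, -0.016 scaled to all features, -0.0085 in DESeq2 and -0.0074 in limma-voom. In GPD-SIR3-A2Q against WT, COB was 0.0098 under TMM, 0.0098 in edgeR, 0.011 in DESeq2 and 0.0099 in limma-voom. In SIR3Δ against WT, COB was 0.050, 0.059, 0.066 and 0.052 in that order. In GPD-SIR3 against GPD-SIR3-A2Q, COB was -0.013, -0.0094, -0.019 and -0.017. Scaled to all features, COX1 in GPD-SIR3-A2Q against WT was -0.043 and COX3 in SIR3Δ against WT -0.038.

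With libraries left out in turn, differences in GPD-SIR3 against WT ran from -0.097 to 0.16 for COB and from -0.079 to 0.34 for OLI1. In GPD-SIR3-A2Q against WT they ran from -0.044 to 0.11 for COX1, -0.23 to 0.029 for COX2, -0.060 to 0.015 for COB and -0.13 to 0.38 for ATP8. In SIR3Δ against WT they ran from -0.15 to 0.22 for COX3, -0.19 to 0.15 for COB, -0.17 to 0.34 for ATP6 and -0.13 to 0.43 for ATP8. In GPD-SIR3 against GPD-SIR3-A2Q they ran from -0.074 to 0.18 for COB, -0.14 to 0.068 for ATP6 and -0.19 to 0.10 for VAR1.

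Depth limits ATP8 most, with 73 to 418 reads. Intervals and tests rest on 2 libraries a strain.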
